A study of Mus musculus with 24 samples.

Results

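The RNA on the outer surface of murine hematopoietic stem and progenitor cells (HSPCs) was compared with that on 3 kinds of spleen lymphocytes. The comparison used 12 of the 24 libraries of the series, 3 each from HSPCs, B cells, T cells and natural killer (NK) cells, all sequenced on 1 platform. Of 102168 transcripts listed, 154 ribosomal RNA transcripts and 3 microRNA transcripts of equal value in a library (Gm55936, Gm55094 and Gm55118) were set aside, and each library was rescaled to the same total. The 5201 transcripts of 4033 genes above 10 TPM (a length-corrected share of a library) in at least 1 library were then tested.

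All cells came from wild-type C57BL/6 mice, whose age and sex are not given in the sources used here. HSPCs were the cells of flushed femur marrow that remained after a kit had depleted lineage-positive cells. They therefore include committed myeloid and erythroid progenitors as well as stem cells. B, T and NK cells were taken from spleen with a kit each, the T cell kit being one for CD8 T cells, and red cells were lysed in every preparation. Surface RNA was read with AMOUR, in which intact, viable cells are fixed, bound to lectin beads and annealed to a random oligonucleotide that carries a T7 promoter, so that T7 RNA polymerase copies the exposed RNA in place. The study states that no present method, AMOUR among them, can exclude contamination with RNA from inside the cells. Total RNA of these cells was not compared here. No treatment separated the groups. Cell type and tissue of origin changed together, so bone marrow and HSPC identity cannot be told apart. The sources name the 3 libraries of a cell type as replicates but do not say whether each came from a separate animal, and p-values measure the spread between these libraries.

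HSPCs give rise to every blood lineage. Early granulocyte progenitors fill primary (azurophil) granules with myeloperoxidase and serine proteases, erythroid progenitors start the program for oxygen and carbon dioxide transport, and megakaryocyte progenitors make platelet chemokines. Marrow progenitors divide, whereas most spleen lymphocytes rest. Replication-dependent histone genes are transcribed in S phase, and their mRNAs end in a stem-loop in place of a poly(A) tail. Box C/D snoRNAs guide ribose methylation, and box H/ACA snoRNAs guide the change of uridine to pseudouridine, mainly in ribosomal RNA. MicroRNAs recognise targets mostly through their seed, the bases 2 to 8.

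The 3 microRNA transcripts set aside held 74.3% to 83.3% of the deposited TPM in HSPCs and 9.72% to 31.5% in lymphocytes, and ribosomal RNA 7.71% to 12.6% and 36.04% to 64.2%. The RNA kept was 9.00% to 13.1% of the deposited TPM in the HSPC libraries, 25.2% to 27.3% in B cells, 35.4% to 42.5% in T cells and 32.6% to 34.5% in NK cells. Pearson's r of log2(TPM + 1) between replicates was 0.925 to 0.939 for HSPCs and 0.859 to 0.959 for the lymphocytes, B cell replicate 1 lying farthest from its group. The labelled cell types were checked against defining markers. Summed over the transcripts of a gene, Kit, the stem cell factor receptor, was 46.8, 45.7 and 52.0 TPM in HSPCs and 0.343 to 31.0 TPM in lymphocytes. Cd34 was 23.8 to 31.1 TPM in HSPCs against at most 1.71 TPM. Cd3e (T cells) stood at 13.1 to 34.0 TPM in T cells and at most 0.0483 TPM in HSPCs, and Ncr1 (NK cells) at 31.7 to 113 TPM in NK cells and at most 0.241 TPM in HSPCs. The NK libraries also held RNA of other blood lineages: Kit was 11.9, 19.4 and 31.0 TPM there, and Car1, an erythroid carbonic anhydrase, was 110, 144 and 230 TPM. The part of such cells in the results was not tested. Without the NK libraries the lists of primary granule, erythroid, platelet and T cell genes kept their counts of calls in each direction as given below. Box C/D snoRNAs were then 11 higher and 34 lower, proliferation transcripts 69 and 3, B cell transcripts 0 and 41 and MHC class II transcripts 0 and 28.

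On the rescaled values, 2676 of the 5201 transcripts (51.5%) were higher in HSPCs than in the mean of the 3 lymphocyte types and 833 (16.0%) were lower (limma on log2(TPM + 1), Benjamini-Hochberg adjusted p below 0.05). Without the 3 NK libraries 2753 were higher and 843 lower. All 3 HSPC libraries lay above all 9 lymphocyte libraries for 1835 transcripts (35.3%) and below all of them for 230 (4.42%). The floor of 10 TPM was passed in both groups by 2322 transcripts, of which 1407 (60.6%) were higher and 215 (9.26%) lower. A further 1275 passed only through HSPC libraries and 1604 only through lymphocyte libraries, and those had a difference built into their choice: 93.6% of the former were higher, and of the latter 38.5% were lower and 4.74% higher.

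The direction of these counts rested on the scaling, because TPM are shares of a library. The median log2 difference over all tested transcripts was 1.02, so a typical transcript took a larger share of the kept RNA in HSPCs. With TPM as deposited 119 of 1376 transcripts were higher and 798 lower, the median being -1.16. With only ribosomal RNA set aside 68 of 2292 were higher and 1535 lower, and with quantile normalization 1669 were higher and 1386 lower. Transcripts shared with the main scaling shifted by a median of -1.18, -1.55 and -0.91. The differences below are therefore read against the median of all transcripts, and scalings under which a list turned are named with it. Of the 2676 higher calls only 426 passed the floor with TPM as deposited and 756 with only ribosomal RNA set aside, so most could not be tested there. Of those that could, 116 kept the call and 11 turned to lower with TPM as deposited, and 65 kept it and 226 turned with only ribosomal RNA set aside. After quantile normalization 1660 of the 2676 kept it and 5 turned. In all, 57 held under all 5 other scalings, among them 26 of replication-dependent histones, 6 of primary granule, 5 of neutrophil and 5 of erythroid transcripts. Of the 833 lower calls, of which 397 and 614 could be tested there, 342 held, among them 107 of small nuclear RNAs (snRNAs) and 44 of snoRNAs.

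**Figure D1:**
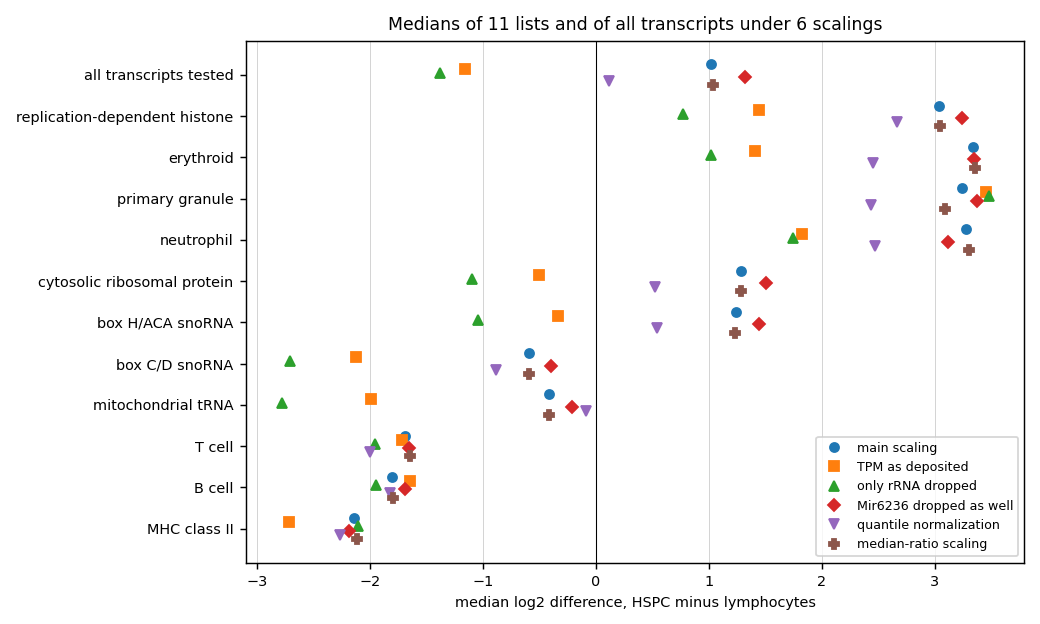
Median log2 difference (HSPC minus lymphocytes, x axis) of 11 gene lists and of all tested transcripts, 1 symbol for each of 6 scalings. The median of all transcripts moves from -1.38 to 1.32, while the histone, erythroid, primary granule and neutrophil lists stay above 0 and the box C/D snoRNA, mitochondrial tRNA, T cell, B cell and MHC class II lists stay below it.

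Primary granule genes held 4 of the 5 largest positive differences, the other being the basophil protease Prss34. Mpo-203, which encodes myeloperoxidase (gene at chr11:87793581-87804413, plus strand, GRCm38), was 370, 535 and 486 TPM in HSPCs. It was at most 0.122 TPM in B cells, at most 0.684 TPM in T cells and 5.40, 9.42 and 6.31 TPM in NK cells. The log2 difference was 7.64 ± 0.25 (SE). Elane-201, neutrophil elastase (gene at chr10:79886247-79888215), was 319, 524 and 441 TPM in HSPCs and 0, 0.803 and 16.04 TPM as the lowest, median and highest of the lymphocyte libraries, a log2 difference of 7.29 ± 0.31 (adjusted p = 9.3e-09). Its neighbour Prtn3-201, proteinase 3 (gene at chr10:79874476-79883174), was 207, 303 and 307 TPM in HSPCs and at most 8.65 TPM in lymphocytes (6.97 ± 0.27). Ctsg-201, cathepsin G, was 83.1, 132 and 111 TPM against at most 2.18 TPM. In each of these transcripts every HSPC library lay above every lymphocyte library, and the lymphocyte maximum was in an NK library. Elane-201 passed the floor in both groups. Mpo-203, Prtn3-201 and Ctsg-201 passed it through HSPC libraries only, so their direction came with the filter and their values are a description.

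Over the whole primary granule list, 16 of 20 tested transcripts of 11 genes were higher in HSPCs and 1 was lower, beside 51.5% and 16.0% of all transcripts. The median log2 difference was 3.24, beside 1.02 for all transcripts. Summed levels were 1613, 2366 and 2166 TPM in HSPCs, 143 to 155 TPM in B cells, 33.2 to 79.0 TPM in T cells and 126 to 295 TPM in NK cells. The median was above 0 under each of the 5 other scalings. Only 6 of the 20 passed the floor in both groups, and 5 of those were higher, beside 60.6% of all such transcripts. In bulk libraries, more progenitors of 1 kind, more surface RNA on each of them and RNA from inside the cells cannot be told apart. In the neutrophil list, which holds Elane and markers of later granulocytes, 12 of 12 tested transcripts were higher, as were all 7 that passed the floor in both groups, beside 51.5% of all transcripts. Its later members overlapped with NK cells more: S100a8-201, a calprotectin subunit, was 26.2, 94.5 and 46.7 TPM in HSPCs and 27.0, 23.4 and 27.8 TPM in NK cells, but at most 0.834 TPM in B and T cells. HSPC replicate 2 held the most neutrophil RNA, 1162 TPM against 528 and 823 TPM in replicates 1 and 3.

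The promoters of Elane and Prtn3 are shown because both genes rose together and lie next to each other. Each is the 250 bases before the RefSeq start on the plus strand of GRCm38.p6, with GAGGAA, the core letters of ETS-family sites such as those of PU.1, in capitals (chr10:79886062-79886311 and chr10:79879417-79879666). These RefSeq starts are not those of the measured transcripts: the stretches end 65 bases past the GENCODE M21 start of Elane-201 and 53 bases past that of Prtn3-201.
Elane: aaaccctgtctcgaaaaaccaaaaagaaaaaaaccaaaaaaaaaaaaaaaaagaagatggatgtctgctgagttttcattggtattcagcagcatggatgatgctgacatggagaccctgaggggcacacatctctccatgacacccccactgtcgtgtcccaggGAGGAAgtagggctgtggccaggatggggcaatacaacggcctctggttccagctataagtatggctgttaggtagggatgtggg
Prtn3: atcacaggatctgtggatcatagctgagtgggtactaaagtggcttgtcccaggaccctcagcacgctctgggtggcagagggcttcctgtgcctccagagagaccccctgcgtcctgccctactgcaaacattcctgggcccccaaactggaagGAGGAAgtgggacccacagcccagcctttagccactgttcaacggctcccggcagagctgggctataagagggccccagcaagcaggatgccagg
On either strand, GAGGAA stood in 5 of the 11 promoters of tested primary granule genes (45.5%) and in 23.1% of 27025 promoters of this length, and the C/EBP letters TTNNGNAA stood in 2 of the 11 (18.2%) and in 36.9% of all. These are matches of letters only, and the motifs were chosen after the values had been seen.

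Erythroid genes formed a further group. Aqp1-201, a water channel of red cells, was 129, 120 and 157 TPM in HSPCs, at most 2.79 TPM in B and T cells and 12.4, 27.4 and 50.4 TPM in NK cells, a log2 difference of 5.15 ± 0.41 (adjusted p = 2.0e-06). Car2-201, carbonic anhydrase 2, was 113.5, 122.6 and 114.7 TPM against at most 52.1 TPM (4.60 ± 0.41, adjusted p = 3.8e-06). The groups did not overlap for either. The adjacent Car1-203 did overlap, with 159, 214 and 192 TPM in HSPCs and 89.3 to 184 TPM in NK cells. All 34 tested transcripts of 26 erythroid genes were higher in HSPCs, 20 of 20 among those past the floor in both groups, with a median of 3.34. In all, 51.5% of transcripts were higher, and 60.6% of those past the floor in both groups. With TPM as deposited 7 of 9 erythroid transcripts were higher, and with only ribosomal RNA set aside 5 of 12 (median 1.02), none being lower. The list included the transcription factor Klf1, at 34.5 to 37.6 TPM in HSPCs and at most 16.4 TPM in lymphocytes, and Gata1, at 20.7 to 22.3 TPM against at most 9.72 TPM. Hba-a2-201, an alpha globin, was 108, 154 and 209 TPM against 1.11 to 105 TPM, and NK replicate 1 lay just below the lowest HSPC library. Its call was lost with only ribosomal RNA set aside (1.38, adjusted p = 0.053).

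Platelet and megakaryocyte transcripts were higher in 18 of 18 tested cases, beside 51.5% of all transcripts. Only 3 passed the floor in both groups, and of all transcripts past it through HSPC libraries only, 93.6% were higher. Pf4-201 and Ppbp-201, which encode platelet chemokines from neighbouring genes on chromosome 5, were 68.7, 77.9 and 75.2 TPM and 47.7, 74.5 and 73.7 TPM in HSPCs. In lymphocytes they reached 7.97 and 7.19 TPM, both in NK cells. The log2 differences were 5.27 ± 0.28 and 4.94 ± 0.23, and both passed the floor through HSPC libraries only. Vwf-209, a von Willebrand factor transcript without a defined coding sequence, was 19.1, 21.4 and 19.8 TPM against at most 0.926 TPM. On the mast cell, basophil and eosinophil list 5 of 7 tested transcripts were higher and 1 was lower, that of the mast cell chymase Cma1 (log2 difference of the gene sum -1.07), and none passed the floor in both groups. Over all transcripts 51.5% were higher and 16.0% lower. Prss34-201, a mast cell and basophil protease, was 148, 159 and 200 TPM in HSPCs against at most 1.98 TPM (7.03 ± 0.27), and Mcpt8-202, a transcript marked for nonsense-mediated decay, was 50.1, 49.8 and 56.9 TPM against at most 0.352 TPM. Gzmb-201, granzyme B, lies in the same chromosome 14 gene cluster as Ctsg and Mcpt8 and had the opposite pattern, 0.739 to 2.20 TPM in HSPCs and 5.51 to 21.9 TPM in NK cells. Against the mean of all lymphocytes Gzmb did not pass the test (adjusted p = 0.47), and without the NK libraries it was higher in HSPCs (log2 difference 0.89).

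**Figure D2:**
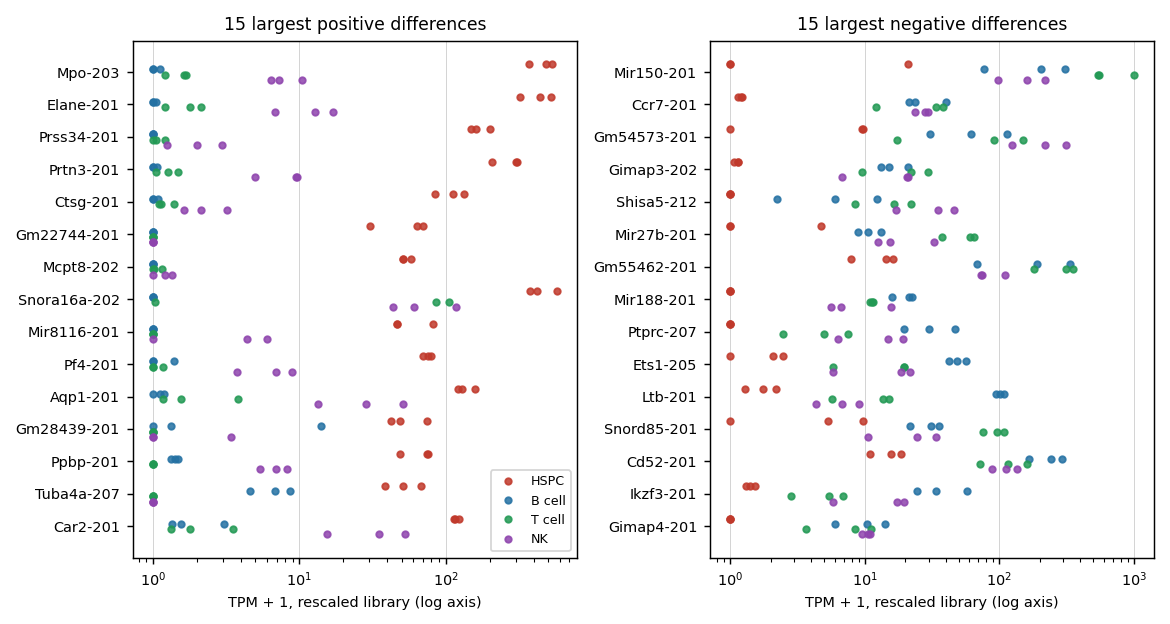
TPM + 1 (log axis) in each of the 12 libraries for the 15 transcripts with the largest positive and the 15 with the largest negative log2 difference among those whose groups do not overlap, 1 point for each library. Primary granule, basophil, platelet and erythroid transcripts lead the left panel, and Mir150-201 and Ccr7-201 lead the right one.

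In the list of stem and progenitor genes 34 of 40 tested transcripts were higher and 2 lower, with a median of 2.43. Only 15 of the 40 passed the floor in both groups, 14 of them higher and none lower, beside 60.6% and 9.26% of all such transcripts. Plac8-201 was 180, 268 and 267 TPM in HSPCs and 2.77 to 66.5 TPM in lymphocytes (3.76 ± 0.33, adjusted p = 3.7e-06), and Adgrg1-201, an adhesion receptor of stem cells, was 40.0 to 48.9 TPM against at most 10.7 TPM. The kinase Cdk6-202 was 30.2 to 36.6 TPM against at most 12.1 TPM. These levels did not overlap between the groups. As gene sums, the transcription factors Gata2 and Myb were 32.0 to 34.1 and 50.4 to 64.3 TPM, and lymphocytes reached 5.70 and 32.6 TPM. Ly6a, which encodes the stem cell antigen Sca-1 and is also made by lymphocytes, was the other way round, 1.04 to 1.79 TPM in HSPCs and 35.9 to 64.5 TPM in B cells. Genes of long-term stem cells were low: Hlf was 1.59 to 3.25 TPM and Meis1 2.98 to 3.61 TPM in HSPCs, below the floor. With only ribosomal RNA set aside, 7 transcripts of this list remained tested, with 1 higher, 2 lower and a median of -0.48.

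Of 16 genes on a list of bone marrow stroma, chosen after the values had been seen, 3 had a tested transcript, each of which passed the floor through HSPC libraries only. Col1a1-201, a collagen of bone and connective tissue, was 9.13, 23.6 and 36.3 TPM in HSPCs and at most 0.369 TPM in lymphocytes. Col1a2-201 was 4.29 to 15.3 TPM against at most 0.289 TPM, and Bglap-201, osteocalcin, was 2.18, 2.95 and 10.3 TPM in HSPCs and listed at 0 in all 9 lymphocyte libraries. Each rose from a low level, and HSPC replicate 3 held the most.

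Replication-dependent histone mRNAs were higher almost throughout. Of 60 tested transcripts 59 were higher in HSPCs and none lower, beside 51.5% and 16.0% of all transcripts. All 55 that passed the floor in both groups were higher, beside 60.6% of all such transcripts. Their sum was 20947, 26381 and 25979 TPM in HSPCs, 2372 to 3362 TPM in B cells, 718 to 1727 TPM in T cells and 4612 to 8714 TPM in NK cells. The median log2 difference was 3.03, and without the NK libraries it was 3.71. The histone median was above 0 under every scaling tried, and none was lower. The number higher moved, to 45 of 52 with TPM as deposited, 26 of 53 with only ribosomal RNA set aside and 58 of 60 after quantile normalization. By chromosome, 51 of the 60 were from the histone genes of chromosome 13, 7 from chromosome 3, and 1 each from chromosomes 6 and 11, and the 1 transcript not called was H2bc1-201.

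H2ac24-201 (chr13:21833026-21833507, minus strand), an H2A gene, was 1001, 1349.6 and 1394 TPM in HSPCs, 67.4 to 86.6 TPM in B cells, 23.3 to 46.9 TPM in T cells and 228 to 424 TPM in NK cells. H3c10-201 (chr13:21717659-21718069, plus strand), an H3 gene, was 1035, 1192 and 1219 TPM in HSPCs and 18.0, 109 and 306 TPM as the lowest, median and highest of the lymphocyte libraries. The log2 differences were 3.78 ± 0.29 and 3.64 ± 0.37 (adjusted p = 1.6e-06 and 7.9e-06), and neither gene overlapped between the groups. H4c17-201 and H2bc15-201, which encode H4 and H2B, differed by 2.75 ± 0.27 and 3.01 ± 0.36. The groups did not overlap for these 2 either, and each call was lost under 1 of the alternatives tried.

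The promoters of 2 histone genes that hold both CCAAT and TATAAA are printed, chosen for that, H3c10 (chr13:21717378-21717627) and H2bc15 (chr13:21753826-21754075), as the 250 bases before the RefSeq start on the plus strand of GRCm38.p6. CCAAT and TATAAA, on either strand, are in capitals.
H3c10: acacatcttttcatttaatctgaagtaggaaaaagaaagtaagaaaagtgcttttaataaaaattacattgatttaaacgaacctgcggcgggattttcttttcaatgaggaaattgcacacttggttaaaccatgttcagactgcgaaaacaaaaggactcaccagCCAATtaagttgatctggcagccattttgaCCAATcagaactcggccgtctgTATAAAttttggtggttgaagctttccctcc
H2bc15: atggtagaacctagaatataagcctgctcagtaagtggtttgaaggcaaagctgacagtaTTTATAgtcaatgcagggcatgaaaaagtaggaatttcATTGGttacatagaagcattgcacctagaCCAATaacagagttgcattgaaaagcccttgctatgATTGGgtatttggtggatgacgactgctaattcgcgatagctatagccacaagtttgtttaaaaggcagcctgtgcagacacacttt
The H2ac24 promoter held CCAAT without TATAAA, and that of H4c17 held TATAAA only. The letters CCAAT stood in 43 of 52 promoters of tested histone genes (82.7%) and in 34.5% of the 27025 promoters, and TATAAA stood in 27 of 52 (51.9%) and in 13% of all.

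Other genes of dividing cells moved in the same direction as the histones. Of 75 tested transcripts on the proliferation list 68 were higher and 2 lower, with a median of 2.64. Of the 34 that passed the floor in both groups 32 were higher and none lower, beside 60.6% and 9.26% of all such transcripts. Tuba1b-201, an alpha tubulin, was 268, 288 and 316 TPM in HSPCs and 4.26 to 117 TPM in lymphocytes. The variant histone H2az1-201, which is polyadenylated, was 77.1, 135 and 127 TPM against 3.17 to 78.1 TPM, and overlapped with NK cells. As gene sums, Top2a and Mki67, both specific to cycling cells, were 41.0 to 49.7 and 27.7 to 30.6 TPM in HSPCs, and lymphocytes reached 12.9 and 13.6 TPM. With only ribosomal RNA set aside none of 18 was higher and 2 were lower.

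**Figure D3:**
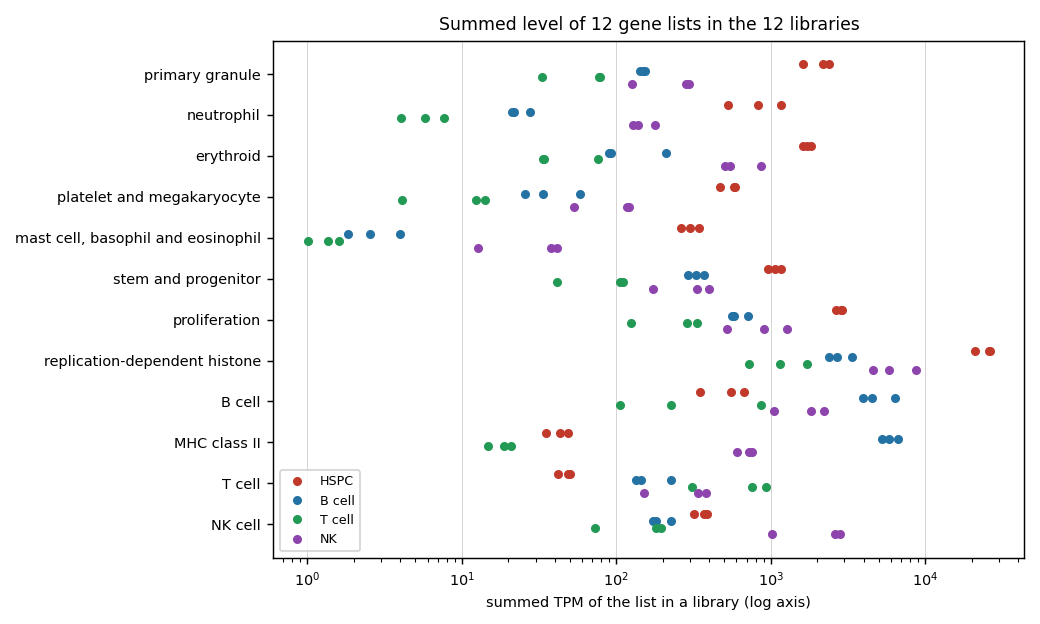
Summed TPM (log axis) of 12 gene lists, 1 point for each of the 3 libraries of a cell type. Granule, erythroid, platelet, basophil, stem and progenitor, proliferation and histone lists have all HSPC points above all lymphocyte points, and for MHC class II and NK cell genes the HSPC points lie above those of T cells but below those of NK cells.

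Heat shock and translation genes were also higher on this scale, though this depended more on the scaling. Of 30 heat shock transcripts 25 were higher and none lower (median 2.27), 19 of 24 among those past the floor in both groups, beside 60.6% of all such transcripts, but with only ribosomal RNA set aside none was higher and 5 were lower. Hsp90ab1-201, a cytosolic chaperone, was 164, 201 and 193 TPM in HSPCs and 5.26 to 96.8 TPM in lymphocytes. Of 78 transcripts of translation factors and nucleolar proteins 63 were higher and 1 lower (40 of 49 higher past the floor in both groups, beside the same 60.6%), the median of 1.79 turning to -0.22 with TPM as deposited and to -0.72 with only ribosomal RNA set aside. Cytosolic ribosomal protein transcripts were higher in 124 and lower in 4 of 184 cases, beside 51.5% and 16.0% of all transcripts. Past the floor in both groups 96 of 139 were higher, beside the same 60.6%. Their median of 1.28 was only 0.26 above that of all transcripts, and with TPM as deposited 3 were higher and 33 lower. With only ribosomal RNA set aside none of 136 was higher and 77 were lower. Their sums overlapped: 23658 to 26791 TPM in HSPCs, 19812 to 27716 TPM in B cells and 5463 to 15931 TPM in T and NK cells. Actb-201 and Malat1-201, common references, did not pass the test (log2 differences 0.61 and -0.01, adjusted p = 0.20 and 0.98), and Actb was lower with TPM as deposited (-0.96).

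Some genes made by all 3 lymphocyte types were lower in HSPCs. Cd52-201, a short surface glycoprotein, was 9.87, 14.6 and 17.5 TPM in HSPCs and 71.1 to 292 TPM in lymphocytes (-3.26 ± 0.32, adjusted p = 6.7e-06). Ccr7-201, the chemokine receptor that guides lymphocytes to lymph nodes, was 0.139, 0.234 and 0.201 TPM in HSPCs and 11.2, 27.0 and 39.1 TPM as the lowest, median and highest lymphocyte values (log2 difference -4.47 ± 0.35). Gimap3-202, of a GTPase family of lymphocyte survival, was at most 0.148 TPM in HSPCs and 5.79 to 28.6 TPM in lymphocytes. All 3 were lower than in every lymphocyte library, and so were Ltb-201 and the Ikaros-family gene Ikzf3-201, with differences of -3.49 and -3.20. Ccr7, Gimap3, Ltb and Ikzf3 passed the floor through lymphocyte libraries only, so their direction came with the filter, whereas Cd52 passed it in both groups. Btg1-202, an antiproliferation gene high in resting lymphocytes, was 6.77, 12.3 and 8.76 TPM in HSPCs against 16.5 to 201 TPM (-2.95 ± 0.41, adjusted p = 7.3e-05). Klf2-201, a quiescence factor, was 7.57 to 12.4 TPM against 19.7 to 135 TPM.

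The lists of single lymphocyte types were lower in HSPCs than in that type. In the B cell, MHC class II and T cell lists the share lower than in NK cells also exceeded the 11.7% of all transcripts. Over all transcripts 16.0% were lower and 51.5% higher than in the lymphocyte mean. In the separate comparisons 21.2% were lower than in B cells, 11.7% than in NK cells and 9.88% than in T cells. Of those past the floor through lymphocyte libraries only, 38.5% were lower than in the lymphocyte mean. In the B cell list 40 of 48 transcripts were lower in HSPCs and 1 higher, and in the separate comparison with B cells 46 were lower, with NK cells 19 and with T cells 1. Only 4 of the 48 passed the floor in both groups, 1 of them lower, so the direction of most was largely set by the filter. Cd79a-201, a part of the B cell receptor, was 0.872, 1.25 and 1.00 TPM in HSPCs, 261 to 441 TPM in B cells, at most 0.756 TPM in T cells and 9.71 to 15.4 TPM in NK cells. HSPCs thus lay above T cells for this gene. Of MHC class II transcripts 26 of 29 were lower and none higher, but 1 of the 29 passed the floor in both groups. Against B cells 29 were lower, against NK cells 23 and against T cells 1. H2-Aa-201 was 0.934 to 1.87 TPM in HSPCs, 589 to 888 TPM in B cells and 82.5 to 102 TPM in NK cells. Of T cell list transcripts 20 of 25 were lower and none higher, and of T cell receptor segments 52 of 75 and none. Against T cells 22 and 68 were lower, against NK cells 13 and 10, and against B cells 4 and 0. The receptor segments against NK cells, and both lists against B cells, stood near or below the shares of all transcripts. Of the tested transcripts of these 2 lists 1 and 0 passed the floor in both groups, so here too the filter largely set the direction. Of NK cell list transcripts 29 of 45 were lower and 9 higher, and without the NK libraries 9 were lower and 9 higher. Of the 9 past the floor in both groups 8 were higher and 1 lower. Tyrobp-202, an adaptor shared by NK and myeloid cells, was among the higher ones, with 44.8 to 68.4 TPM in HSPCs, at most 8.69 TPM in B and T cells and 51.0 to 140 TPM in NK cells. MHC class I and peptide loading transcripts, present in all cells, were lower in 6 and higher in 2 of 35 cases, beside 16.0% and 51.5% of all transcripts. Their median of -0.29 lay 1.31 below that of all transcripts. These counts rested on the scaling, with 25 of 35 lower and none higher after quantile normalization, 11 of 11 lower with TPM as deposited and 17 of 18 with only ribosomal RNA set aside. Without the NK libraries 4 were lower and 3 higher, the median being 0.04.

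Immunoglobulin RNA was not absent from HSPCs. Igkc-201, the kappa constant region, was 419, 296 and 152 TPM in HSPCs, 629 to 1594 TPM in B cells, 44.6 to 422 TPM in T cells and 671 to 1252 TPM in NK cells. It overlapped between HSPCs and T cells and did not pass the test (log2 difference -0.82 ± 0.56, adjusted p = 0.21). Ighm-202, the IgM heavy chain, was 16.3 to 20.8 TPM in HSPCs against 1072 to 1246 TPM in B cells. Over all immunoglobulin segments 61 of 141 transcripts were lower and 3 higher, beside 16.0% and 51.5% of all transcripts. Of the 46 that passed the floor in both groups 8 were lower and 2 higher, so most of the lower ones had passed through lymphocyte libraries only.

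By RNA type, snRNA took 25.5% to 29.3% of the kept TPM in HSPCs and 30.4% to 49.2% in lymphocytes, with no overlap (exact permutation test, two-sided, p = 0.00455, the smallest that 220 choices allow). MicroRNA took 21.8% to 23.5% in HSPCs against 3.48% to 16.9% (exact p = 0.0182), and protein-coding RNA 12.7% to 14.96% against 1.56% to 11.2% (exact p = 0.0182). Small Cajal body RNA (scaRNA) took 0.0426% to 0.0505% against 0.0115% to 0.0202% (exact p = 0.00455), but its direction turned with only ribosomal RNA set aside. After adjustment over 22 types none was below 0.05, snRNA and scaRNA standing at 0.05, and 8 types had an unadjusted p below 0.05. With TPM as deposited the log2 difference of Mir6236-201 was -0.014 in place of 1.57. On the rescaled values it alone made up 19.5% to 20.8% of the kept TPM in HSPCs and 1.92% to 15.4% in lymphocytes, and the other microRNAs 2.25% to 2.90% against 1.31% to 2.08%. Gm55276, annotated as a microRNA, made up most of that gap, and without it the other microRNAs took 1.32% to 1.43% in HSPCs, within the 1.22% to 1.82% of lymphocytes. The annotated Mir6236 hairpin lies at chr9:110281287-110281409. The mature sequence is printed because this 1 entry sets most of the microRNA share, with the seed in capitals.
miR-6236: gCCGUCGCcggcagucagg

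**Figure D4:**
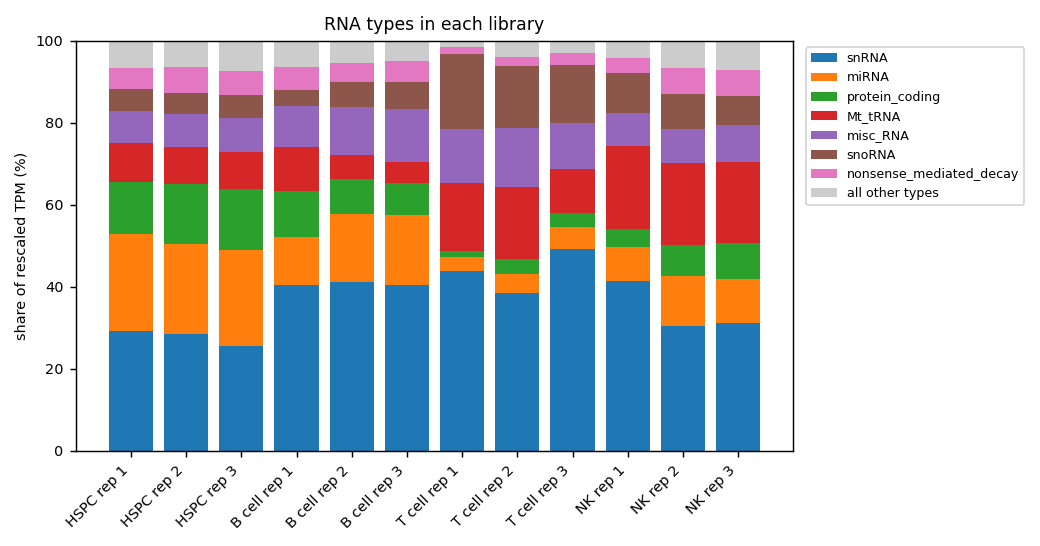
Share of the rescaled TPM (%) held by each of 7 RNA types, with the remaining types pooled, 1 bar for each library. HSPC bars have the largest microRNA and protein-coding parts and the smallest snRNA parts.

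On the rescaled values the snRNA difference did not hold for every snRNA. Of 218 tested snRNA transcripts 135 were lower in HSPCs and 13 higher, and all 3 HSPC libraries lay below all lymphocyte libraries for 92, beside 16.0% lower, 51.5% higher and 4.42% below all of them over all transcripts. Among the 149 past the floor in both groups 103 were lower and 12 higher, beside 9.26% and 60.6%. Of 6 U1 transcripts 3 were higher and 1 lower, and the U2 and U5 transcripts did not pass the test (log2 differences -0.15 and -0.14). With TPM as deposited 3 of the 6 U1 transcripts were lower and none higher, and with only ribosomal RNA set aside all 6 were lower. U2 and U5 were called lower under both scalings, at -1.734 and -1.721 and then at -2.528 and -2.515. Near-identical copies make the split between loci uncertain, and 88 of the 218 share their values with another transcript. The counts above therefore hold copies. With same-valued transcripts counted once, 39 snRNAs were called lower and lay below all lymphocyte libraries, of 152 such transcripts of all types. Rnu4atac-201, the U4atac RNA of the minor spliceosome (chr1:118459141-118459265, minus strand), was 155, 97.0 and 104 TPM in HSPCs, 1941 to 3306 TPM in B cells, 718 to 1019.9 TPM in T cells and 333 to 403 TPM in NK cells, a log2 difference of -3.01 ± 0.24 (adjusted p = 2.0e-06). The long noncoding transcript 2900060B14Rik-201 covers the same bases and strand and was also lower (-2.35 ± 0.27, adjusted p = 2.1e-05), so their reads cannot be told apart. The other minor spliceosome RNAs Rnu11-201 and Rnu12-201 did not pass the test (0.10 and 0.34, adjusted p = 0.72 and 0.24), and were lower with TPM as deposited (-1.48 and -1.24). Rnu7-201, which guides cleavage of histone mRNA 3′ ends, was 18071, 11786 and 13398 TPM in HSPCs, 1857 to 2260 TPM in B cells and 12031 to 21059 TPM in T and NK cells. It was higher than in B cells, overlapped with the other lymphocytes, and its log2 difference of 0.89 turned to -0.69 with TPM as deposited and to -1.49 with only ribosomal RNA set aside. The U7 sequence (chr6:124741225-124741286, minus strand, GENCODE M21) is given because its level set B cells apart from the other 3 cell types.
Rnu7: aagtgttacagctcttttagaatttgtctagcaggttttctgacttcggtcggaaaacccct

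The 2 snoRNA classes went apart relative to each other. Of 88 tested box C/D snoRNAs 37 were lower in HSPCs and 7 higher, with a median of -0.59, beside 16.0% lower and 51.5% higher of all transcripts. Of 37 tested box H/ACA snoRNAs 24 were higher and none lower, with a median of 1.24. The share of H/ACA snoRNAs higher was not far from that of all transcripts, their median was only 0.22 above, and its direction flipped with TPM as deposited (4 higher, 4 lower, median -0.34) and with only ribosomal RNA set aside (2 higher, 16 lower). The C/D median was below 0 and below the median of all transcripts under each of the 6 scalings. Summed C/D levels were 31493 to 33930 TPM in HSPCs, 33639 to 56623 TPM in B cells, 97919 to 121282 TPM in T cells and 52527 to 72574 TPM in NK cells. B cell replicate 1 lay close to the HSPC libraries, and T cells were highest. The lower calls came from T and NK cells: 1 C/D snoRNA was higher and 59 lower than in T cells, and 2 and 25 than in NK cells. Against B cells 34 were higher and 16 lower. Summed H/ACA levels were 3124 to 4294 TPM in HSPCs and 765 to 1757 TPM in lymphocytes.

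Length went with the class. The median length was 81 bases for C/D and 133 bases for H/ACA snoRNAs, and over all transcripts with a length the median difference was -0.40 under 100 bases, 0.33 from 100 to 200 bases and 1.44 from 1000 bases. Among C/D snoRNAs of 100 bases or more, 7 of 15 were lower and none higher, as against 24 lower and 7 higher of 62 shorter ones. These counts are a description, and the part of length in the difference was not tested.

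The snoRNAs the comparison turned on are shown from GENCODE M21 (GRCm38), with T for U, the first 2 being H/ACA and the other 3 C/D. Capitals mark ACA 3 bases before the end of H/ACA snoRNAs and TGATGA (box C) and the last CTGA (box D) of C/D snoRNAs. ACA stood there in 28 of 34 tested H/ACA sequences and in 0 of 77 C/D sequences, and CTGA stood in the last 20 bases of 74 of 77 C/D and 3 of 34 H/ACA sequences.
Snora9 (chr11:6528033-6528165, minus strand): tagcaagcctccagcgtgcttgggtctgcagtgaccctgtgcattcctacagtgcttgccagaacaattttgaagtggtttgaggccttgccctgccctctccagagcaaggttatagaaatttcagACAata
Snora57 (chr19:8888538-8888685, minus strand): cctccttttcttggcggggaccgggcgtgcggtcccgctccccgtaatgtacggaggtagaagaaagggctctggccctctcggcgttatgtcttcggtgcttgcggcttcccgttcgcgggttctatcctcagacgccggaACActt
Snord118 (chr11:69073427-69073561, plus strand): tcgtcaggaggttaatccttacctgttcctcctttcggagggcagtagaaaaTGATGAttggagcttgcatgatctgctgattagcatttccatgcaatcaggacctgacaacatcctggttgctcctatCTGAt
Snord32a (chr7:45127382-45127464, minus strand): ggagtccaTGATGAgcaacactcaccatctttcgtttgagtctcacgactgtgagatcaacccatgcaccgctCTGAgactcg
Snord37 (chr10:81178950-81179013, plus strand): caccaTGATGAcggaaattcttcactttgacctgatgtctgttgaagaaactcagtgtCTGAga

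Snora9-201 was 390, 325 and 367 TPM in HSPCs, 8.19 to 28.9 TPM in B cells, 74.1 to 96.2 TPM in T cells and 37.6 to 121 TPM in NK cells (log2 difference 3.02 ± 0.41, adjusted p = 5.6e-05). Snora57-201 was 413, 323 and 389 TPM in HSPCs and 38.6 to 126 TPM in lymphocytes (2.61 ± 0.33, adjusted p = 3.4e-05). Both stood above every lymphocyte library, and each call was lost under 1 of the alternatives tried. Snord118-201, the U8 RNA needed for processing of the large ribosomal subunit, was 4495, 4438 and 4377 TPM in HSPCs, against 9428, 12059.9 and 13663 TPM as the lowest, median and highest lymphocyte values (-1.37 ± 0.14, adjusted p = 9.1e-06). The HSPC values varied little and lay below all 9 others. Snord32a-201 was 626, 764 and 661 TPM in HSPCs, 449 to 1037 TPM in B cells, 6584 to 11471 TPM in T cells and 1585 to 4332 TPM in NK cells (-1.89 ± 0.33). Snord37-201, which lies in an intron of Eef2, was 1395 to 1465 TPM in HSPCs, 587 to 1066 TPM in B cells and 4010.0 to 9937 TPM in T and NK cells (-1.09 ± 0.21). For the last 2, HSPCs lay nearer to B cells than to T and NK cells, and for Snord37-201 they lay above every B cell library. The host gene mRNAs of these 2 snoRNAs had positive log2 differences. Rpl13a-214, whose introns hold Snord32a, differed by 0.95 ± 0.34 and Eef2-201 by 1.63 ± 0.38 (adjusted p = 0.025 and 0.0022). Only Eef2-201 lay above the median of 1.02 of all transcripts. With only ribosomal RNA set aside their differences were -1.41 and -0.72. The Rpl13a call was also lost after quantile normalization (0.52), with no filter, without the NK libraries (0.79) and without HSPC replicate 1 (0.97) or 2 (0.82), and Rpl13a was -0.62 with TPM as deposited.

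Among the leading transcripts were a few snoRNAs. Gm22744-201, a snoRNA of 65 bases within Snhg1 (chr19:8725092-8725156), was 29.6, 62.5 and 69.4 TPM in HSPCs and listed at 0 in all 9 lymphocyte libraries. Snhg1-213, a transcript with retained introns of that host gene, was lower in HSPCs, 42.0 to 71.1 TPM against 46.9 to 521 TPM (-1.37 ± 0.29, adjusted p = 0.0013). Snora16a-202 was 378, 418 and 575 TPM in HSPCs against at most 117 TPM, but a near-identical Snora16a transcript makes the split between them uncertain. Snord85-201 was 8.72, 4.38 and 0 TPM in HSPCs and 9.60 to 107 TPM in lymphocytes. Gm22744-201 passed the floor through HSPC libraries only and Snord85-201 through lymphocyte libraries only, so the direction of each came with the filter.

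**Figure D5:**
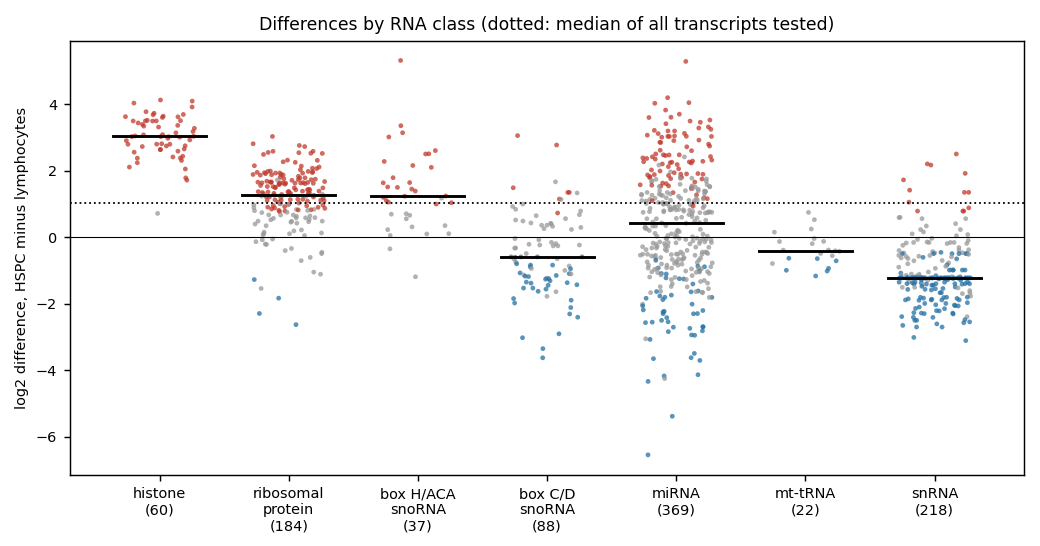
Log2 difference (HSPC minus lymphocytes) of each tested transcript in 7 classes, with the number of transcripts in brackets. Red points are higher calls, blue points lower calls and grey points neither, bars are class medians and the dotted line is the median of all 5201 transcripts (1.02). Histones lie above that line with 1 exception, and most snRNAs lie below 0.

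Of 369 tested microRNA transcripts 87 were higher (23.6%) and 52 lower (14.1%), beside 51.5% and 16.0% of all transcripts. Values belong to the annotated hairpin gene and do not say which arm, or which part of the primary transcript, was read. Below are the mature sequences of the microRNAs the results turn on, from RefSeq (GRCm38.p6), which held a mature sequence for 217 of the 369, with seeds in capitals. The first 4 were lower in HSPCs, the next 3 higher, and the rest are 2 families with a shared seed.
miR-150-3p: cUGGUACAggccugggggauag
miR-139-5p: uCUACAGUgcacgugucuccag
miR-155-5p: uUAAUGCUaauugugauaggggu
miR-142a-3p: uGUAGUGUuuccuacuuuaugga
miR-223-3p: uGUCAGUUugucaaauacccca
miR-144-3p: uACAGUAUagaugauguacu
miR-8116: aAGGAUCCggggcuaguuggc
let-7b-5p: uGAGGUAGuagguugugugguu
let-7d-5p: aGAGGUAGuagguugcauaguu
let-7i-5p: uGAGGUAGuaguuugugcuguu
miR-221-3p: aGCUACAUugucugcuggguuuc
miR-222-3p: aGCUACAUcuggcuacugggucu

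Mir150-201 (chr7:45121757-45121821), a microRNA of mature lymphocytes, had the largest negative difference. It was listed at 0, 19.97 and 0 TPM in HSPCs and was 76.0 to 305 TPM in B cells, 539 to 1007 TPM in T cells and 97.1 to 217 TPM in NK cells, so the groups did not overlap (-6.54 ± 0.79, adjusted p = 2.6e-05). Mir139-201 was 17.4, 0 and 0 TPM in HSPCs, 12.1 to 49.0 TPM in B cells and 114 to 446 TPM in T and NK cells (-5.38 ± 0.76). Mir155-201, induced on lymphocyte activation, was 0, 19.9 and 0 TPM against 9.64 to 182 TPM (-4.17 ± 0.82). Both of these reached into the lymphocyte range through 1 HSPC library. Mir142-201, found in all blood cells, was 700, 590 and 558 TPM in HSPCs and 553 to 2594 TPM in lymphocytes, only B cell replicate 1 lying as low (-1.25 ± 0.27, adjusted p = 0.0015). Mir188-201 was listed at 0 in all 3 HSPC libraries and was 4.59 to 21.3 TPM in every lymphocyte library, and had passed the floor through those only.

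Of 9 tested hairpins that share the let-7 seed GAGGUAG, 5 were lower in HSPCs and none higher, beside 14.1% and 23.6% of all tested microRNAs. Only 2 of the 9 passed the floor in both groups, 1 of them lower, so the direction of most came with the filter, also that of Mirlet7b-201. Mirlet7b-201 was 0, 0 and 1.37 TPM in HSPCs and 4.62 to 32.4 TPM in lymphocytes, without overlap (-3.07 ± 0.51). Mirlet7f-1-201 was 14.9 to 23.1 TPM against 22.7 to 54.2 TPM. Let-7 is known to be low in immature cells. The seed GCUACAU of miR-221 and miR-222, hairpins near each other on the X chromosome that are known to target Kit, was higher in both, Mir222-201 being 3.50, 14.3 and 8.43 TPM in HSPCs and at most 3.59 TPM in lymphocytes (2.72 ± 0.53), 1 NK library lying just above the lowest HSPC library. Both passed the floor through HSPC libraries only, so this direction came with the filter. Kit itself was higher too, as given above.

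Mir223-201, of granulocytes and monocytes, was 50.4, 42.4 and 26.9 TPM in HSPCs, at most 3.52 TPM in B and T cells and 5.20 to 22.1 TPM in NK cells (3.70 ± 0.47, adjusted p = 3.4e-05). Mir144-201 and Mir486-201, erythroid microRNAs, were 6.67 to 19.01 TPM and 15.9 to 22.2 TPM in HSPCs, and lymphocytes reached 5.22 and 10.8 TPM. All 3 stood above every lymphocyte library, Mir144-201 having passed the floor through HSPC libraries only. Mir8116-201 was 45.6, 45.8 and 80.9 TPM against at most 5.02 TPM (5.29 ± 0.44, past the floor through HSPC libraries only), and Gm55276-201 was 14694, 9318 and 12966 TPM against 251 to 2955 TPM (3.61 ± 0.50). On the list of blood cell microRNAs 13 of 40 were higher and 8 lower, beside 51.5% and 16.0% of all transcripts. On deposited TPM none of 18 was higher and 10 were lower, with only ribosomal RNA set aside 1 was higher and 18 lower, and the median of 0.27 turned to -0.53 after quantile normalization. Mir139, Mir155, Mir144, Mir223, Mir222, Mir486 and the let-7 members were named after their values had been seen.

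Of 22 mitochondrial tRNAs, all past the floor in both groups, none was higher and 7 were lower, with a median of -0.41. Among all such transcripts 60.6% were higher and 9.26% lower. Without the NK libraries 3 of the mitochondrial tRNAs were higher and 3 lower. The count moved with the scaling, to 20 of 22 lower with TPM as deposited, 22 of 22 with only ribosomal RNA set aside, and 4 lower and 3 higher after quantile normalization (median -0.09). Their share was 9.03% to 9.64% in HSPCs, 5.08% to 10.7% in B cells, 10.9% to 17.5% in T cells and 19.7% to 20.2% in NK cells. HSPCs lay within the range of B cells and below T and NK cells, and B cell replicate 1 was at 10.7%. Of 13 mitochondrial mRNAs 7 were higher and none lower, a share near the 51.5% of all transcripts, mt-Co1-201 being 639, 643 and 943 TPM in HSPCs and 64.5 to 743 TPM in lymphocytes. The HSPC and NK values of mt-Co1 overlapped, and its call was lost in 4 alternatives and turned in 1. With TPM as deposited none of 12 mitochondrial mRNAs was called, and with only ribosomal RNA set aside none was higher and 1 was lower. Their median turned from 1.44 to -0.15 and -0.90 under these 2 scalings. Rn7s1-201, the 7SL RNA of the signal recognition particle, was 24828, 26700 and 26753 TPM in HSPCs and 28734 to 60254 TPM in lymphocytes, a small drop without overlap (-0.68 ± 0.12, adjusted p = 0.00028). Terc-202, the telomerase RNA, was 36.7 to 50.1 TPM against 3.25 to 20.5 TPM (1.95 ± 0.33, adjusted p = 0.00024), which turned to -0.28 with only ribosomal RNA set aside.

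The 3 lymphocyte types differed in how far HSPCs stood from them. Against B cells 1798 transcripts were higher in HSPCs (34.6%) and 1104 lower (21.2%), against T cells 3126 (60.1%) and 514 (9.88%, in all 70.0%), and against NK cells 2114 (40.6%) and 611 (11.7%). The 3 comparisons share the HSPC libraries. With TPM as deposited the direction turned, and NK cells in place of B cells had the fewest higher calls, with 159 higher and 709 lower against B cells, 196 and 605 against T cells and 23 and 687 against NK cells. On the rescaled values the order went with the protein-coding share, which was lowest in T cells (1.56% to 3.57%). B and NK cells changed places without NK replicate 1, when 1501 were higher against NK cells and 1967 against B cells. Of 88 box C/D snoRNAs, 34 were higher and 16 lower against B cells, shares near those of all transcripts, against T cells 1 and 59, and against NK cells 2 and 25. Histones were higher against each type, in 59, 60 and 56 of 60 cases.

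Each HSPC library had 668, 683 and 703 transcripts above 50 TPM, the threshold the study used for surface RNA, against 390 to 617 in lymphocytes (mean difference 160, exact permutation test, two-sided, p = 0.00909). With TPM as deposited the order turned, 201, 245 and 228 against 307 to 380. The 10 most abundant transcripts of a library held 39.9%, 39.1% and 39.8% of the kept TPM in HSPCs and 27.9% to 38.0% in lymphocytes (exact p = 0.00909). With Mir6236 set aside they held less in HSPCs, 25.6% to 25.9% against 27.0% to 28.5%.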

How the data were processed

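Surface RNA was sequenced from 12 libraries, 3 each of HSPCs and spleen B, T and NK cells. The authors deposited kallisto estimates per transcript in TPM, which are relative to transcript length and to the total of a library. The labels name mm10, the methods name kallisto with the human transcriptome, and the annotation release is not given in the sources used here. Reads were trimmed and duplicates removed by barcode. TPM hold no read counts, so depth is unknown and no counting interval was given.

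The 154 rRNA and 3 same-valued miRNA transcripts were dropped and each library was rescaled. Transcripts above 10 TPM in at least 1 library were fitted as log2(TPM + 1) with limma 3.58.1 (R 4.3.3, empirical Bayes with trend), with cell-type means over all 12 libraries and Benjamini-Hochberg adjustment over 5201 transcripts. Fold changes are on that scale and understate low transcripts. Per-library values were compared by exact permutation. In simulated data of 12 libraries only a small part of the transcripts was changed, drawn from the more abundant ones. Of those changed by 2 on the log2 scale 83% were recovered, and of those changed by 1, 15%. Of the calls 6.67% were false. In the real data 67.5% of transcripts were called, so these shares need not hold there.

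Named transcripts were the 15 largest differences in each direction without overlap, up to 2 per direction and RNA type, and the most abundant of each list, of the miRNAs and of HSPCs. Marker genes, host genes, stromal genes and the miRNAs said to be so were added after their values were seen. Members and lists were chosen with earlier results of these data known. Coordinates are GRCm38 (GENCODE M21), and promoters and mature miRNAs are from RefSeq (GRCm38.p6). Scaling, filter, pseudocount, block and left-out libraries were the alternatives tried.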

Additional observations from a re-analysis of the deposited data

How the results depend on the processing

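The direction of the counts depended on the scaling. Deposited TPM gave 119 transcripts higher than in lymphocytes and 798 lower, with only ribosomal RNA set aside 68 and 1535, and after quantile normalization 1669 and 1386. On deposited TPM 159 were higher and 709 lower than in B cells, 196 and 605 against T cells, and 23 and 687 against NK cells, so lower calls outnumbered higher ones against each type. The number of transcripts tested moved the counts under other filters: 453 higher and 309 lower above 50 TPM, 970 and 372 with a mean above 10 TPM, and 19344 and 1898 with no filter. A floor of 10 TPM in both groups gave 1402 and 217, and at least 1 TPM in all 12 libraries 998 and 328. Those 2 filters, and leaving out the NK libraries, were chosen after seeing the data. Leaving out 1 library at a time gave 2364 to 2728 higher and 696 to 905 lower. Against B cells this gave 1410 to 1967 and 917 to 1169, against T cells 2839 to 3218 and 456 to 537, and against NK cells 1501 to 2271 and 479 to 642.

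After adjustment 1 RNA type was higher and 8 were lower with TPM as deposited, and 1 and 16 with only ribosomal RNA set aside. The log2 ratio turned to -0.91 for lncRNA and -1.02 for nonsense-mediated decay transcripts with TPM as deposited. With only ribosomal RNA set aside it turned to -1.71 and -1.81 for these, -1.51 for the type TEC, -1.44 for processed and -1.43 for unprocessed pseudogenes, -1.45 for transcripts without a defined coding sequence, -1.56 for retained introns, -1.77 for ribozymes and -0.94 for scaRNA. The difference in the share of the 10 most abundant transcripts was 9.17 percentage points with TPM as deposited (exact p = 0.0545), 2.35 with only ribosomal RNA set aside (exact p = 0.186) and -2.21 without Mir6236, and 6.54 to 7.80 with 1 library left out. The difference in the number above 50 TPM was -114 with TPM as deposited, -205.89 with only ribosomal RNA set aside and 143.17 to 171.54 with 1 library left out, and without HSPC replicate 3 it was 150.83 (exact p = 0.0545).

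Of 69 called transcripts named here, 54 held under every alternative in which they were tested, and 12 lost the call in at least 1. Mir6236-201, Rnu7-201 and Terc-202 turned instead and are in neither count. A transcript had at most 29 alternatives and was not tested where it fell below the floor. Col1a1-201, Vwf-209 and Mir144-201 thus held in 23, so the 54 do not all stand under every scaling. With only ribosomal RNA set aside 9 calls were lost, and with TPM as deposited 4. The 12 were Eef2-201, H2az1-201, H2bc15-201, H4c17-201, Hba-a2-201, Hsp90ab1-201, Rpl13a-214, Snora57-201, Snora9-201, Tuba1b-201, Tyrobp-202 and mt-Co1-201. The log2 difference on deposited TPM turned to -0.96 for Actb-201, -0.014 for Mir6236-201, -1.48 for Rnu11-201, -1.24 for Rnu12-201, -0.69 for Rnu7-201 and -0.62 for Rpl13a-214. With only ribosomal RNA set aside it turned to -1.75 for Actb-201, -0.72 for Eef2-201, -0.81 for Mir6236-201, -2.27 for Rnu11-201, -2.03 for Rnu12-201, -1.49 for Rnu7-201, -1.41 for Rpl13a-214, -0.28 for Terc-202 and -0.76 for mt-Co1-201. Without the NK libraries it was 0.89 for Gzmb-201. Beyond the scalings' own construction the cause was not tested.

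Replicate numbers did not pair the libraries over all groups: deviations of same-numbered libraries had a median correlation of -0.01 (-0.23 to 0.33), and 7 of 12 libraries were closest to their own number. The same-numbered T and NK libraries alone correlated at 0.12 to 0.33 in all 3 pairs. With the number as a replicate block 2689 were higher and 829 lower.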
